A study of Homo sapiens with 2 samples.

Results

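The inner mitochondrial membrane carries the respiratory chain, and the subunits of its complexes I to V that are encoded in the nucleus are described here as they were recovered by RNA immunoprecipitation. Of the 60649 rows of the deposited table, 86 were taken by their gene symbols, using the stems NDUFA to NDUFV, SDHA to SDHD, UQCR, COX4 to COX8 and ATP5 and leaving out names that end in P plus digits, which are pseudogenes. They comprise 37 complex I genes, 4 complex II genes, 9 complex III genes, 17 complex IV genes and 19 complex V genes. The rule uses no measured value.

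In RNA immunoprecipitation (RIP), an antibody captures a protein and the RNA that comes down with it is sequenced. Both groups were MDA-231 cells, a breast cancer line labelled wild type, that spent 16 h without serum in the presence of P4G11, an antibody to beta-1 integrin. One library was captured with an antibody to MT1-MMP, a membrane-anchored matrix metalloproteinase, and its title reads MMP1 although the study's design names MT1-MMP. The other was a mock RIP with rabbit IgG, and its cell line tag reads MDA-232. The treatment text also lists E7-s without giving its role. There is 1 library per group, so nothing below has a replicate check, and no p-value was computed.

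Electrons enter the chain at complex I, which oxidises NADH, or at complex II, which oxidises succinate and is also an enzyme of the citric acid cycle. They pass through complex III and cytochrome c to complex IV, which reduces oxygen, and the proton gradient that complexes I, III and IV build drives ATP synthesis by complex V. Complexes I, III, IV and V also hold subunits made inside mitochondria from the mitochondrial genome, whereas nuclear-encoded subunits are translated from ordinary mRNAs in the cytoplasm and imported.

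The MT1-MMP library held 31636000 counts and the IgG library 13003668. A block of 28 ribosomal DNA rows on chromosome 21 took 92.6% of the IgG counts and 10.2% of the MT1-MMP counts. Ratios of MT1-MMP to IgG counts were therefore put on a scale from the trimmed mean of M-values (TMM), which sets the typical row near a ratio of 1, equal to 45.9 MT1-MMP counts for each IgG count. "Higher" and "lower" below are relative to that typical row unless plain CPM (each count as a share of its library's total) is named, and by plain CPM every log2 ratio lies 4.24 higher. Each ratio has an exact 95% interval that covers counting error only, and a gene was called where the whole interval lay beyond 2-fold. Of the cell line's 6 markers, VIM, CD44, CAV1, MET and EGFR had 1681 to 47868 MT1-MMP counts, while ANXA1 had 21 and 0 IgG counts. In the list of 14 markers of blood, vessel, fibroblast and muscle cells, 10 had 0 IgG counts, and the vessel marker PECAM1 held 3414 of the list's 3641 MT1-MMP counts. The 6 luminal breast markers summed to 705 MT1-MMP and 79 IgG counts, with KRT18 at 50 and 72 and CDH1 at 17 and 0. In these bulk RIP libraries of a cell line, fewer cells of a type, less RNA per cell and less RNA captured cannot be told apart.

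Most respiratory chain subunits had a lower ratio of MT1-MMP to IgG counts than the typical row. Of the 79 subunit genes with at least 20 counts over both libraries, 47 were called higher in the IgG library and 1 was called higher with MT1-MMP. The same calls took 16.2% and 7.24% of the 14319 tested protein-coding genes. The median log2 ratio over the 79 genes was -2.16, a 4.47-fold excess on the IgG side, against 0.05 over the tested protein-coding genes. It was 2.08 by plain CPM, and its 95% order-statistic interval on the TMM scale was -2.57 to -1.70. Such an interval, given in brackets with the median of a complex below, describes the spread over genes of these 2 libraries. It takes the genes as independent and holds no error between libraries. All 86 genes together held 28459 MT1-MMP counts and 1739 IgG counts. Outside the ribosomal block this is 0.100% of the MT1-MMP counts (exact interval 0.0990 to 0.101) and 0.181% of the IgG counts (0.172 to 0.189).

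The scale sets the sign of most of these ratios. By plain CPM, 13 of the 79 genes lay below 0, 0 were called higher with IgG and 48 with MT1-MMP, where 0.691% and 86.1% of tested protein-coding genes were called. With totals outside the ribosomal block as the scale, 32 and 3 were called, against 11.3% and 17.8% of tested protein-coding genes. In 6 genes the plain CPM interval also lay wholly below 0, as it did in 1.84% of tested protein-coding genes: NDUFB10, COX5B, COX7C, ATP5F1B, ATP5F1D and ATP5ME.

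**Figure D1:**
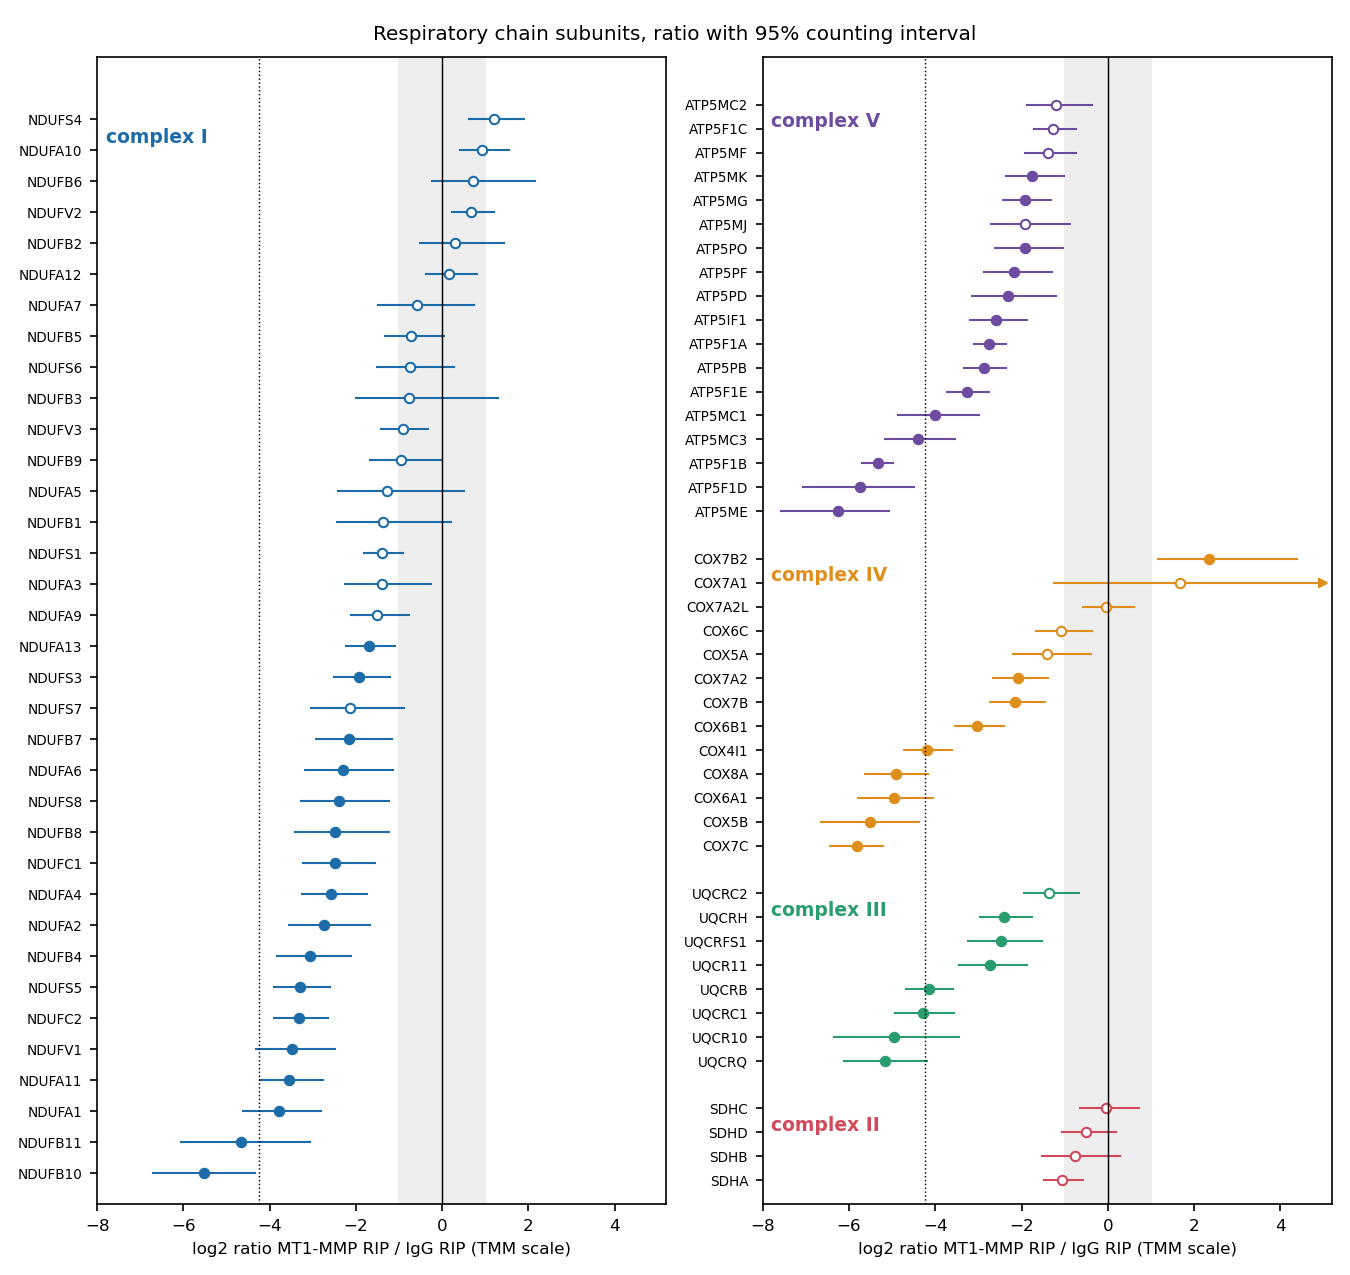
Log2 of the MT1-MMP over IgG count ratio on the TMM scale for 78 of the 79 tested subunit genes, by complex, with 95% counting intervals as bars. Filled circles were called beyond 2-fold (grey band: within 2-fold), the dotted line marks equal plain CPM, and the arrow marks an interval with no upper end. The 4 complex II genes sit between -1.06 and -0.04, and most genes of complexes III to V lie left of the band, although by plain CPM most lie above 0.

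In raw counts, the genes differed mainly in the MT1-MMP library. Their IgG counts ran from 0 to 119 with a median of 18. Their MT1-MMP counts ran from 10 to 2680 with a median of 167. A call as higher in the MT1-MMP library needed at least 341 MT1-MMP counts where IgG had none, which 26 of the 79 genes reached, so depth limits calls on that side.

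**Figure D2:**
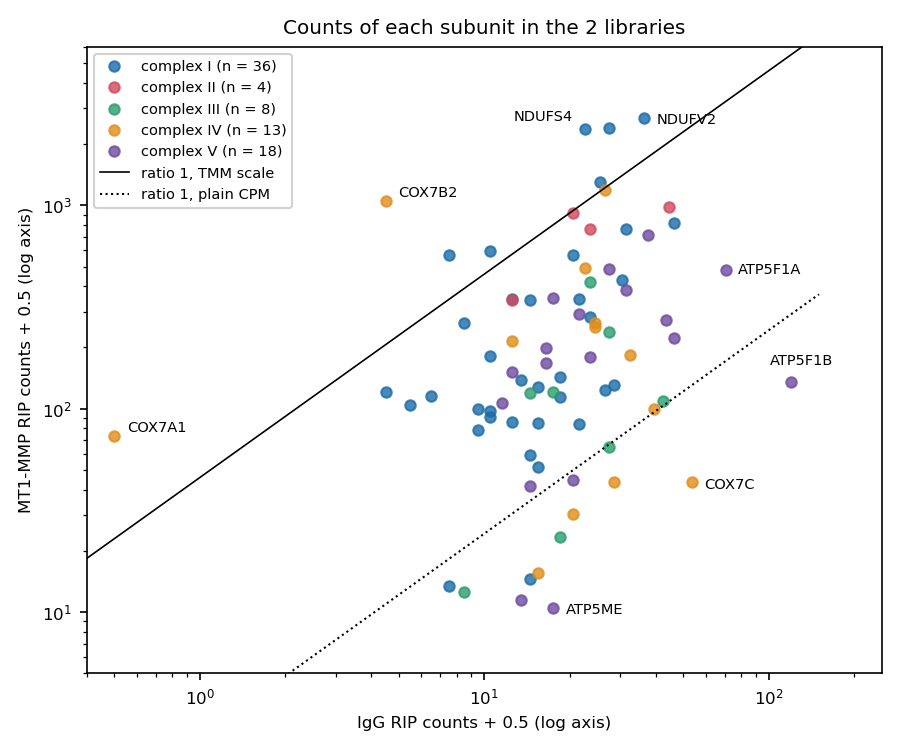
MT1-MMP RIP counts against IgG RIP counts of the 79 tested subunit genes, both with 0.5 added and on log axes, coloured by complex. The solid line marks a TMM-scaled ratio of 1 and the dotted line equal plain CPM; MT1-MMP counts spread from 10 to 2680, while most IgG counts lie between 10 and 119.

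Complex I, the largest complex, was split between called and uncalled genes. Of its 36 tested genes, 18 were called higher with IgG and 0 with MT1-MMP, and 30 lay below 0. The same calls took 16.2% and 7.24% of tested protein-coding genes, named the background below. The median log2 ratio was -1.82 (-2.48 to -0.95), or 2.42 by plain CPM. The 7 core subunits, which form the NADH-oxidising and quinone-reducing modules, had 4 called and a median of -2.13. The 29 tested accessory subunits had 14 called and a median of -1.52.

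Among the core subunits, NDUFV1, which binds NADH and flavin, had 59 MT1-MMP counts and 14 IgG counts, a log2 ratio of -3.48 (95% interval -4.30 to -2.49). NDUFV2, its iron-sulfur partner, had 2680 and 36 counts and a ratio of 0.68 (0.22 to 1.21). These 2 intervals do not overlap. The proteins sit side by side in the same module. NDUFV2 spans 31.6 kb and shares 13.1 kb of it with NDUFV2-AS1, which had 640 and 19 counts, while NDUFV1 spans 5.62 kb. NDUFS1, the largest iron-sulfur subunit, had 815 and 46 counts (-1.39, -1.80 to -0.91). In the quinone module, NDUFS8 (91 and 10 counts) and NDUFS3 (283 and 23) were called higher in the IgG library with ratios of -2.40 and -1.93, while NDUFS7 (99 and 9) was at -2.13 (-3.04 to -0.89) and missed the call.

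The accessory subunits covered almost the whole range. NDUFB10 (GRCh38 chromosome 16, 1959538 to 1961975) had 14 counts in each library, a log2 ratio of -5.52 (-6.70 to -4.34). NDUFB11, on the X chromosome at 47142216 to 47145491, had 13 and 7 counts (-4.67, -6.06 to -3.06). NDUFA1, also on the X chromosome, at 119871832 to 119876662, had 51 and 15 (-3.79, -4.61 to -2.82). NDUFA11 (chromosome 19, 5891229 to 5903790) had 84 and 21 (-3.55, -4.22 to -2.76). All 4 had fewer than 100 MT1-MMP counts, and their IgG counts were near the median of the 79 genes or below it.

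At the other end were NDUFS4 and NDUFA10. NDUFS4 (chromosome 5, 53560639 to 53683338), an accessory subunit of the NADH-oxidising arm, had 2370 and 22 counts, a ratio of 1.20 (0.63 to 1.91). NDUFA10 (chromosome 2, 239892442 to 240025342) had 2408 and 27 counts (0.93, 0.41 to 1.56). Neither was called, since the intervals reached below 2-fold. IgG counts of these genes resembled those of NDUFA11, and their MT1-MMP counts were more than an order of magnitude above it. NDUFB6 (570 and 7 counts, 0.73) overlaps SMIM27 over 13.9 kb, whose row held 590 and 5 counts, so its reads cannot be told apart from those of SMIM27.

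All 4 genes of complex II, the sole complex built wholly from nuclear genes, stayed without a call. The protein-coding genes nearest to them in span were called higher in the IgG library in 15.6% on average. With 4 genes, 0 calls is near that share. SDHA, the flavoprotein that oxidises succinate, had 979 and 44 counts (log2 ratio -1.06, -1.48 to -0.57). SDHB, the iron-sulfur subunit, had 341 and 12 (-0.75, -1.52 to 0.27). The membrane anchors SDHC and SDHD had 917 and 20 counts (-0.04, -0.64 to 0.72) and 764 and 23 counts (-0.50, -1.06 to 0.20). The median of the 4 was -0.62, which became 0.015 with totals outside the ribosomal block and 3.62 by plain CPM. SDHA has near-identical pseudogene copies, and the rows SDHAP1 (1317 and 12 counts) and SDHAP2 (1048 and 14) held more MT1-MMP counts than SDHA and SDHAP3 (272 and 7) fewer, so the division of reads among them is uncertain.

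In complex III, 7 of 8 tested genes were called higher in the IgG library (background 16.2%). The median log2 ratio was -3.45 (-5.18 to -1.36, the full range of the 8 genes), or 0.79 by plain CPM. It was -2.61 over the 4 members without an overlapping gene, where complex V was lower (-2.73 over 8), and -2.48 over the 5 with at least 100 counts. UQCRQ, a small subunit (chromosome 5, 132866642 to 132868847), had 23 and 18 counts (-5.18, -6.12 to -4.19). UQCR10 had 12 and 8 counts (-4.96, -6.35 to -3.44). The core protein UQCRC1 (chromosome 3, 48599002 to 48609646) had 64 and 27 counts (-4.29, -4.95 to -3.57). UQCRB, known as the ubiquinone-binding protein, had 109 and 42 counts (-4.16, -4.67 to -3.60), and its pseudogene row UQCRBP1 had 15 and 10.

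The other complex III genes were nearer to the typical row. UQCRFS1, the Rieske iron-sulfur protein, had 119 and 14 counts (-2.48), UQCR11 had 120 and 17 (-2.74), and UQCRH, the hinge protein, had 237 and 27 (-2.41, -2.96 to -1.75). UQCRC2, the second core protein (chromosome 16, 21953361 to 21983660), had 420 and 23 counts (-1.36, -1.93 to -0.66) and was the member without a call. The interval of UQCRC2 does not overlap that of UQCRC1, its partner in the complex, which had slightly more IgG counts and 64 MT1-MMP counts. UQCRC2 spans 30.3 kb, of which 26.1 kb overlap PDZD9 (33 and 0 counts), while UQCRC1 spans 10.6 kb. UQCRHL, a copy of UQCRH, had 13 and 1 counts, below the minimum.

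Complex IV had the widest spread. It had 8 of 13 tested genes called higher in the IgG library and the only call in the MT1-MMP library (background 16.2% and 7.24%). Its median log2 ratio was -2.16 (-4.95 to -0.04), or 2.08 by plain CPM. COX7C (chromosome 5, 86617941 to 86620962) had 43 MT1-MMP counts and 53 IgG counts, a ratio of -5.82 (-6.44 to -5.21), and lay below 0 by plain CPM too (-1.58). COX5B had 15 counts in each library (-5.52, -6.66 to -4.39), COX6A1 30 and 20 (-4.95, -5.80 to -4.04) and COX8A 43 and 28 (-4.91, -5.62 to -4.16). A snoRNA gene inside COX7C, SNORD138, had 2 and 9 counts in its own row. COX6C had 489 and 22 counts (-1.08) and COX5A 214 and 12 (-1.42), both without a call.

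Several complex IV subunits exist as a widely used form and a form known from particular tissues, and their rows differed. COX4I1, the ubiquitous form of subunit 4, had 99 and 39 counts (-4.19, -4.72 to -3.60), and COX4I2, the form known from lung, had 2 and 0. COX6B1 had 183 and 32 counts (-3.02, -3.55 to -2.42) and the testis form COX6B2 7 and 0. The muscle form COX6A2 and the testis form COX8C had 0 in both libraries, which allows up to 0.0948 CPM in the MT1-MMP library and 0.231 CPM in the IgG library. In subunit 7a, the ubiquitous COX7A2 had 264 and 24 counts (-2.09, -2.67 to -1.39) and the muscle form COX7A1 73 and 0, whose interval (lower end -1.25, no upper end) includes 0. COX7A2L, a relative of COX7A2 that joins complexes III and IV into supercomplexes, had 1183 and 26 counts (-0.04, -0.57 to 0.61).

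The gene called higher in the MT1-MMP library was COX7B2 (chromosome 4, 46734827 to 46909245), a testis-expressed relative of COX7B. It had 1051 MT1-MMP counts and 4 IgG counts, a log2 ratio of 2.35 (1.16 to 4.40). By plain CPM it was above 0 too (6.59), as most members were. With the interval required to lie beyond 4-fold it was not called. COX7B itself (7.91 kb) had 252 and 24 counts (-2.16, -2.73 to -1.46). COX7B2 spans 174.4 kb, the longest span of all members. The protein-coding genes nearest to it in span had medians of 1929 MT1-MMP and 20.5 IgG counts. Their median log2 ratio was 1.14, and COX7B2 stood at percentile 97.5 of their ratios. Its counts were below these medians in both libraries, by log2 differences of -0.88 for MT1-MMP and -2.22 for IgG. The call thus goes with few IgG counts and not with high MT1-MMP counts for its span. NDUFA4, named as a complex I subunit but found with complex IV, had 143 and 18 counts (-2.57), and counting it there gave 9 of 14 called in complex IV and 17 of 35 in complex I.

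In complex V, 14 of 18 tested genes were called higher with IgG and 0 with MT1-MMP (background 16.2% and 7.24%). All 18 lay below 0, and the median log2 ratio was -2.45 (-4.00 to -1.92). By plain CPM the median was 1.79 and 4 of the 18 lay below 0. The 5 subunits of the catalytic head (F1) had 4 called and a median of -3.27. ATP5F1B, the catalytic beta subunit (chromosome 12, 56638175 to 56645984), had 135 and 119 counts, the most IgG counts of any member, and a ratio of -5.34 (-5.70 to -4.97). ATP5F1D, the delta subunit (chromosome 19, 1241751 to 1244825), had 11 and 13 counts (-5.75, -7.06 to -4.49). ATP5F1E, the epsilon subunit, had 221 and 46 (-3.27, -3.72 to -2.77), and ATP5F1A, the alpha subunit, had 479 and 70 (-2.75, -3.11 to -2.36). ATP5F1C, the gamma subunit of the rotating shaft (chromosome 10, 7788177 to 7807801), had 717 and 37 (-1.26, -1.72 to -0.73) and was not called. Alpha and beta alternate in the same ring, and their intervals did not overlap. ATP5F1A spans 24.0 kb and ATP5F1B 7.81 kb, and the snoRNA gene SNORD59A inside ATP5F1B had 6 and 6 counts in its own row.

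The membrane part and stalk of complex V were also low. ATP5ME, subunit e (chromosome 4, 672436 to 674276), had 10 and 17 counts, the lowest ratio of all members at -6.26 (-7.58 to -5.08). The 4 peripheral stalk genes ATP5PB, ATP5PD, ATP5PF and ATP5PO were all called, with ratios from -2.88 to -1.92. The inhibitor ATP5IF1 had 179 and 23 counts (-2.59, -3.19 to -1.87). ATP5MF (483 and 27 counts, -1.38) lies wholly inside the readthrough gene ATP5MF-PTCD1 (779 and 36), and ATP5PD wholly inside KCTD2 (293 and 28). These values may therefore not be theirs alone.

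The c ring of complex V is encoded by ATP5MC1, ATP5MC2 and ATP5MC3, whose mature proteins are the same and whose import sequences differ. ATP5MC1 (chromosome 17, 48892787 to 48895871) had 41 and 14 counts (-4.00, -4.88 to -2.98). It lies wholly inside the 34.1 kb noncoding gene LOC105371814, which matched no row, so its counts may not be its own alone. ATP5MC3 (chromosome 2, 175176258 to 175181710) had 44 and 20 counts (-4.40, -5.18 to -3.54). ATP5MC2 (chromosome 12, 53665170 to 53681423) had 348 and 17 counts (-1.20, -1.87 to -0.37). The IgG counts of the 3 were thus alike, and ATP5MC2 stood apart by its MT1-MMP counts, with an interval that overlaps neither of the other two. Their spans were 3.08, 16.3 and 5.45 kb for ATP5MC1, ATP5MC2 and ATP5MC3.

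Summed over its tested members, each complex lay below the typical row on the TMM scale, and all 5 sums would lie above 0 by plain CPM. Complex III was lowest with 1104 MT1-MMP and 176 IgG counts, a log2 ratio of -2.88 (-3.10 to -2.63). Complex V had 4237 and 553 counts (-2.58, -2.71 to -2.45), complex IV 3939 and 299 (-1.80, -1.97 to -1.63), complex I 16140 and 611 (-0.80, -0.91 to -0.68) and complex II 3001 and 99 (-0.61, -0.89 to -0.30). These intervals cover counting error only, and single genes weigh on the sums. Without its member with most MT1-MMP counts, each sum was lower in complex III (-3.36, -3.62 to -3.10, without UQCRC2), complex V (-2.75, -2.88 to -2.61, without ATP5F1C), complex IV (-2.19, without COX7A2L) and complex I (-0.97, -1.09 to -0.85, without NDUFV2). Complex II without SDHA was higher, at -0.33 (-0.71 to 0.09), an interval that includes 0. The intervals of complexes I and II, and of III and V, overlap with all members and do not overlap without these. The members left out were chosen by their MT1-MMP counts, the numerator of the ratio. This separation therefore does not show that the complexes differ.

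Gene span, the distance from start to end with introns, ran along with these values. Across the 79 genes, Spearman's rho with span was 0.67 for the log2 ratio, 0.78 for MT1-MMP counts and 0.21 for IgG counts. These are correlations across genes of the same 2 libraries, and the part of span in the ratios was not tested. Of the 40 tested members up to 10 kb long, 33 were called higher in the IgG library, of the 26 between 10 and 30 kb, 14, and of the 13 over 30 kb, 0. The protein-coding genes nearest in span to these members were called in 51.4%, 25.5% and 6.65% on average, so the share fell with span in genes at large too. Complex II had the longest median span (42.1 kb), against 11.6 kb for complex I, 9.47 kb for complex III, 8.04 kb for complex V and 7.91 kb for complex IV.

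**Figure D3:**
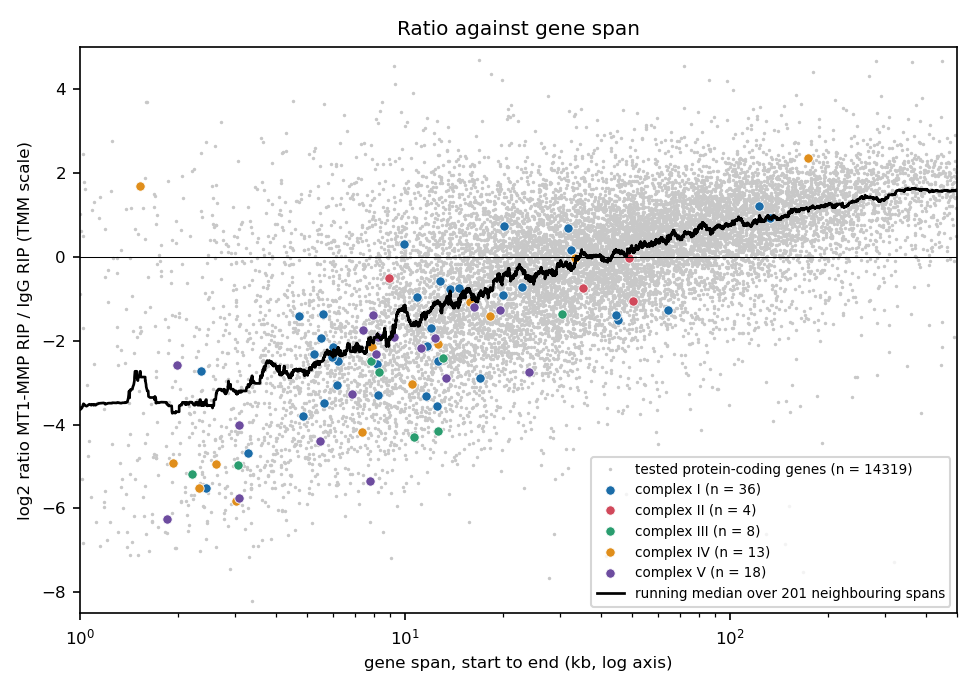
Log2 of the MT1-MMP over IgG ratio (TMM scale) against gene span on a log axis for 14319 tested protein-coding genes (grey) and the 79 subunit genes, coloured by complex; a few grey points lie outside the axes. The black line is the running median of the protein-coding genes, which rises with span, and many subunit genes lie below it.

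Each member was therefore set against the 200 tested protein-coding genes nearest to it in span. The difference of a member's log2 ratio from the median of its neighbours was -0.78 at the median over members, and 56 of the 79 genes lay below their neighbours. By complex the median difference was -1.46 in complex III, with all 8 genes below, -0.996 in complex IV (10 of 13 below), -0.80 in complex V (15 of 18), -0.53 in complex II (3 of 4) and -0.32 in complex I (20 of 36). The neighbours' own share called higher in the IgG library averaged 35.5%, against 59.5% of the members. For complexes I to V it averaged 33%, 15.6%, 38.3%, 38.7% and 41.3%, against 50%, 0%, 87.5%, 61.5% and 77.8% of members. The differences do not depend on the scale, which moves a member and its neighbours by the same amount, whereas the shares called do.

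Split by library, the members stood above genes of like span in the IgG library and less so in the MT1-MMP library. On the log2 count scale the median difference from the neighbours was 0.79 in the IgG library, with 67 of 79 genes above, and 0.42 in the MT1-MMP library, with 52 above. ATP5F1B had the largest IgG difference, 3.81, at an MT1-MMP difference of 0.62. UQCRB was 2.32 above its neighbours in IgG counts and stood at -0.49 from them in MT1-MMP counts, and it stood at percentile 1.5 of its neighbours' ratios. SDHD, with a span of 8.92 kb, was 2.78 above its neighbours in MT1-MMP counts and 1.16 in IgG counts, the largest MT1-MMP difference among members. Within complex III, 5 of the 8 genes had fewer MT1-MMP counts than their neighbours' median, and 7 had more IgG counts.

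**Figure D4:**
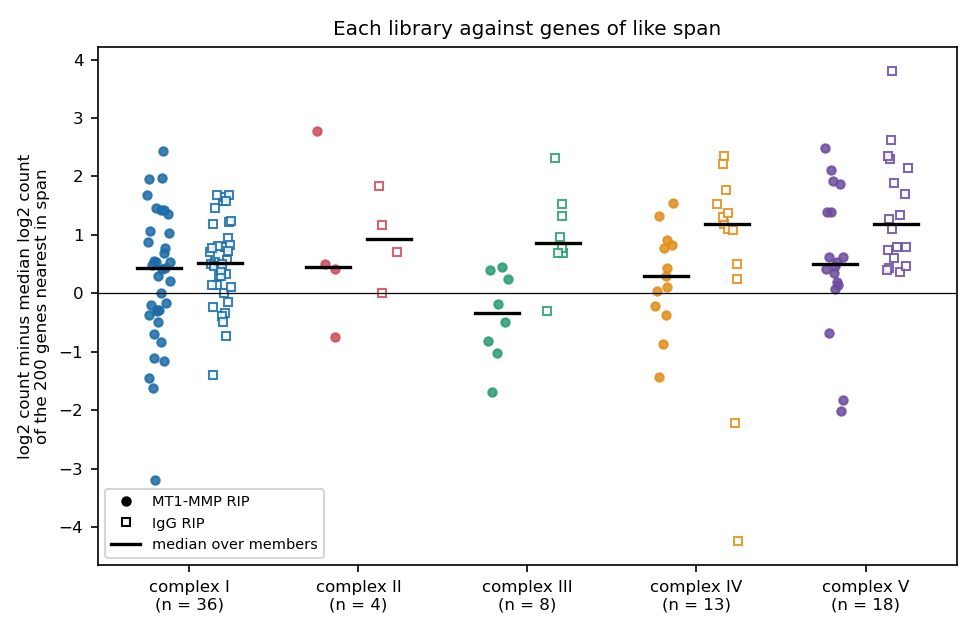
Log2 count of each subunit gene minus the median log2 count of the 200 tested protein-coding genes nearest in span, for the MT1-MMP RIP (filled circles) and the IgG RIP (open squares), by complex, with the median over members as a bar. In complexes III, IV and V the IgG bar (0.87, 1.19 and 1.18) lies above the MT1-MMP bar (-0.34, 0.30 and 0.50), and in complex I both lie near 0.5.

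Promoters were compared as a feature the choice of members did not use. RefSeq windows on GRCh38.p14 from 250 bases before to 50 after the gene start were found for 70 of the 86 genes. They were searched on both strands for 3 motifs: the palindromic motif of NRF1, a regulator of respiratory chain genes, CCGGAAGT of the ETS family and the motif of YY1. The NRF1 letters were found in 17 of the 70 (24.3%), against 8.68% of protein-coding and 6.28% of all promoter windows of that length. The ETS letters were in 10 (14.3%, against 6.30% and 4.44%) and the YY1 letters in 7 (10.0%, against 1.98% and 1.28%), and 0 of the 70 windows had overlapping matches of different motifs. The median log2 ratio was -1.92 for the 15 tested members with the NRF1 letters and -2.16 for the 51 without. For 1 or 2 members of each complex with such a match and of high or low ratio, a stretch of 80 bases upstream of the gene start that holds the match is shown 5′ to 3′ on the gene's strand, with the NRF1 letters, read on either strand, in capitals. No tested complex IV gene with a window had a match, and the tested genes COX6C and COX7A1 had no window. NDUFB4 (-3.06) lies on the plus strand (chr3:120596142-120596221), NDUFA12 (0.16) on the minus strand (chr12:95003769-95003848), SDHD (-0.50) on the plus strand (chr11:112086728-112086807), UQCRC1 (-4.29) on the minus strand (chr3:48609649-48609728) and ATP5F1C (-1.26) on the plus strand (chr10:7788097-7788176).
NDUFB4: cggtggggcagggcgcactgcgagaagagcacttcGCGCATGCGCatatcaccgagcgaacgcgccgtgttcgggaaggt
NDUFA12: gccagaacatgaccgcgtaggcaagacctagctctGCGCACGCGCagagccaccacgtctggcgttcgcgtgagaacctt
SDHD: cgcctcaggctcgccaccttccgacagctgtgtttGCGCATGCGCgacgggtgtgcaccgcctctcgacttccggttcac
UQCRC1: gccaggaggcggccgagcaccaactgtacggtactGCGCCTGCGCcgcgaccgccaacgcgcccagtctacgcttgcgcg
ATP5F1C: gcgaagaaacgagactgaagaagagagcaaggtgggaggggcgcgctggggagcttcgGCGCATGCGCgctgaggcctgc

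Members with the NRF1 letters thus had ratios from well below the typical row to near it. NDUFB4 had 85 and 15 counts, and NDUFA12, with a span of 32.4 kb, had 1305 and 25. A match is a description of letters and does not show binding.

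The proteins that assemble the complexes had calls near the background. Of 48 tested assembly factors, 8 were called higher with IgG (16.7%, against 16.2% of protein-coding genes) and 3 with MT1-MMP (background 7.24%). These counts were 4 and 9 with totals outside the ribosomal block (background 11.3% and 17.8%). By plain CPM they were 0 and 40 (background 0.691% and 86.1%). Their median log2 ratio was -0.11, which turned to 0.028 with upper-quartile scaling, 0.53 with totals outside the ribosomal block and 4.13 by plain CPM. Their median span was 17.1 kb. PET100 (8 and 15 counts, -6.39) and COA3 (13 and 15, -5.72), both needed for complex IV, and FMC1 (56 and 11, -3.22), a complex V factor, were lowest by their upper bounds. NDUFAF2 (6215 and 37, 1.85) and NUBPL (4042 and 25, 1.79), complex I factors with spans of 207.8 and 299.8 kb, and COA1 (9096 and 78, 1.34) were called higher in the MT1-MMP library.

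A further list of 6 genes outside the name pattern held electron carriers, other subunits and the insertase OXA1L. Of its 5 tested genes, 3 were called higher in the IgG library (background 16.2%), or 1 by plain CPM (background 0.691%). NDUFA4L2 had 6 and 1 counts, below the minimum. CYC1, the cytochrome c1 of complex III, had 15 and 27 counts (-6.35), lower than any complex III member, and cytochrome c itself, CYCS, had 249 and 51 (-3.24). OXA1L, an insertase of the inner membrane, had 133 and 17 (-2.59). The other tested genes, NDUFAB1 (285 and 10, -0.76) and DMAC2L (1094 and 7, 1.67, 0.72 to 3.09), were not called. With totals outside the block, however, 1 of the 5 genes was called higher with MT1-MMP (background 17.8%). Of 14 citric acid cycle enzymes, 4 were called higher in the IgG library (background 16.2%). Among them were IDH3B (-5.42), IDH3G (60 and 19 counts, -3.89) and MDH2 (-2.81). SUCLG2 (1.90) was called higher with MT1-MMP (background 7.24%). By plain CPM 0 and 11 of the 14 were called, where the background is 0.691% and 86.1%. Their median was -0.63, which was 0.0091 with totals outside the block. Overlap with neighbouring genes was not examined for these lists.

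Of 14 regulators of mitochondrial gene expression, 4 were called higher in the IgG library, led by PPRC1 (-2.03), POLRMT (-2.41) and TFAM (-1.76), and 2 in the MT1-MMP library, where the background is 16.2% and 7.24%. All 4 calls on the IgG side were lost with totals outside the ribosomal block (0 and 4 called, background 11.3% and 17.8%). They were also lost by plain CPM (0 and 13 called, background 0.691% and 86.1%). The 2 called with MT1-MMP by TMM were NRF1 and TFB1M. The gene of the transcription factor NRF1 itself had 4198 and 17 counts (2.39, 1.75 to 3.21), and TFB1M 3617 and 17 (2.17, 1.53 to 2.99). The median over the 14 was 0.25. The 13 protein genes of the mitochondrial genome, which encode the partner subunits of complexes I, III, IV and V, were listed at 0 in both libraries. So were all 37 of its rows. Whether reads of the mitochondrial genome were kept and counted is not given, so these zeros do not show that its RNA was absent.

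**Figure D5:**
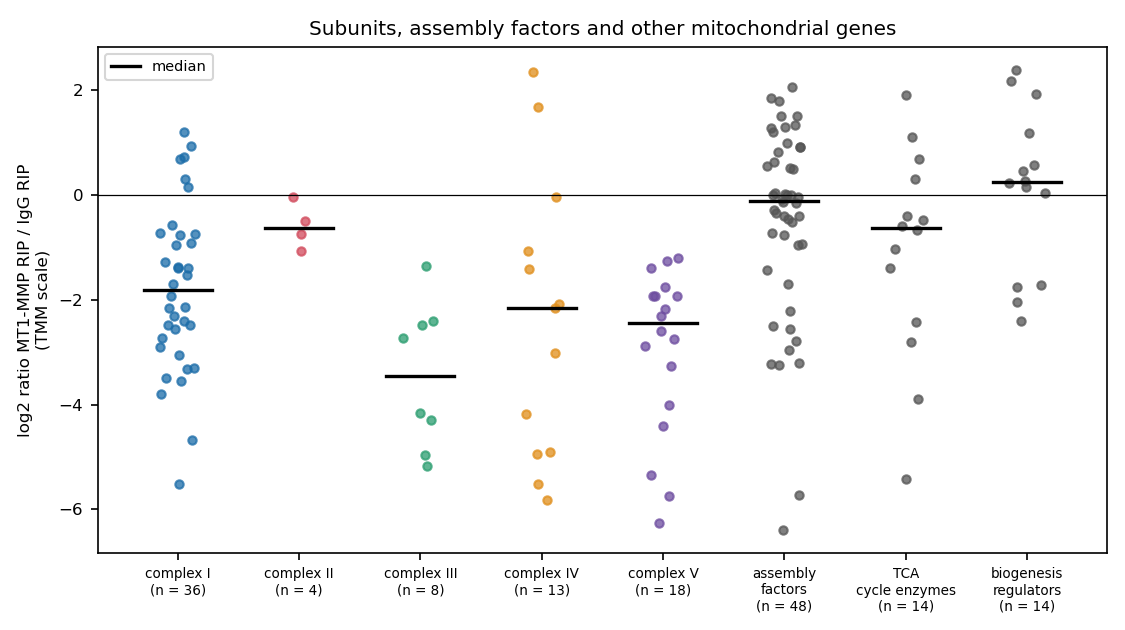
Log2 of the MT1-MMP over IgG ratio (TMM scale) for tested subunit genes by complex, assembly factors, citric acid (TCA) cycle enzymes and biogenesis regulators; points are genes and bars medians. With all tested members the subunit medians run from -3.45 (complex III) to -0.62 (complex II) and those of the other 3 lists from -0.63 to 0.25, and by plain CPM all these medians lie above 0.

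Pseudogene rows of the same families, which the choice of members left out, held few counts apart from those of SDHA. The 104 dropped rows of the UQCR, COX and ATP5 families summed to 530 MT1-MMP and 34 IgG counts, a log2 ratio of -1.58 (-2.06 to -1.01). The 56 NDUF pseudogene rows summed to 306 and 3 (0.93, -0.41 to 3.44). ATP5PDP4 (89 and 2 counts) came close to its parent ATP5PD (106 and 11) in MT1-MMP counts, and COX6A1P2 (9 and 8) held IgG counts next to the 20 of COX6A1.

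The share called was alike with and without overlap of another gene. Of the 47 tested members whose span overlaps no other RefSeq gene, 28 were called higher in the IgG library (59.6%), and of the 32 with an overlap, 19 (59.4%). The 7 members below the minimum of 20 counts were NDUFA8 (3 and 0 counts), UQCRHL, COX4I2, COX6A2, COX6B2, COX8C and ATP5MGL (13 and 0), which lies inside CYB5R3.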

How the data were processed

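The authors deposited raw read counts for each named row of 2 RNA immunoprecipitation libraries, and no normalization was applied to these counts by the authors as far as the values show. The build hg38 and the tools cutadapt, HISAT2 and SAMtools are named, with no versions, per the submitters' processing notes. How reads were assigned to rows, and whether strand was used, is not given here, so reads of overlapping genes cannot be told apart. The reads carry no stated molecular identifiers, and intervals of ratios and shares cover counting error only. Intervals of medians describe the spread over genes and hold no error between libraries.

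Ratios were scaled with TMM (edgeR 4.0.16, R 4.3.3), which was used for scaling alone. Given a gene's summed count, its 95% interval is the exact Clopper-Pearson one (scipy 1.17.1). Genes needed 20 summed counts, 0.5 counts were added before log2, and a call needed the interval beyond 2-fold. A count of 0 was given an upper limit of 3 counts. Spans and biotypes came from the RefSeq GRCh38.p14 table, where 85 members matched by symbol and 1 by an older symbol. The calling code was tested on simulated data.

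All members could be named, except 1 that is counted in the groups but not reported singly here. Given in full were, per complex, the 4 with upper bounds farthest below 1 and the 2 with the highest intervals, members called higher in the MT1-MMP library, complex II and paralogue groups; of each pathway list, up to 3 with the bound farthest from 1 in each direction. Members and lists were chosen with earlier results of these data known. Alternatives covered scaling (plain CPM, DESeq2 1.42.0 size factors, upper quartile, totals without the ribosomal block), minimum, added counts, threshold, overlap, pseudogenes and span. Sums without the largest member and the place of NDUFA4 were added after seeing the data.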

Additional observations from a re-analysis of the deposited data

How the results depend on the processing

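The scale decides direction. By plain CPM, 0 members were called higher with IgG and 48 with MT1-MMP, and the median log2 ratio turned to 2.08 over all members, 2.42 in complex I, 3.62 in complex II, 0.79 in complex III, 2.08 in complex IV and 1.79 in complex V. Of the 71 tested members below 0, 58 lay above 0 by plain CPM, and the sign turned also for uncalled ones such as SDHA. Among lists it turned for assembly factors (4.13), the genes outside the name pattern (1.65) and citric acid cycle enzymes (3.61). Among called members described in full it turned for ATP5MC1 (0.23), COX4I1 (0.050), COX6B1 (1.21), COX7A2 (2.15) and COX7B (2.08). It turned also for NDUFA1 (0.45), NDUFA11 (0.69), UQCRB (0.083) and UQCRH (1.83). This follows from the construction, since plain CPM adds 4.24 to every log2 ratio. With totals outside the ribosomal block, 3 members were called higher in the MT1-MMP library and the median was -1.52 over all members, -1.81 in complex V, 0.015 in complex II, 0.53 for assembly factors and 0.0091 for citric acid cycle enzymes. Upper-quartile scaling turned the assembly factors to 0.028. Minus genes of like span, the medians were -0.78 over all members, -0.32 in complex I and -0.80 in complex V. Calls higher in the IgG library numbered 30 at a minimum of 100 counts, 27 beyond 4-fold, 28 of 47 members without overlap and 21 of 33 without pseudogene rows, where fewer members were tested or the threshold was stricter. Calls higher in the MT1-MMP library numbered 4 beyond 1-fold, 0 beyond 4-fold and 0 with at least 5 counts in each library, which leaves out COX7B2. No share over all tested genes is given at these minimums, thresholds and subsets. These counts therefore do not show whether members differ from other genes there. Without members that have pseudogene rows the complex IV median was 0.82, which rests on 4 of its 13 genes (COX8A, COX7A2L, COX7A1 and COX7B2). Subsets of members also moved the median to -3.02 in complex IV (at least 5 counts in each library, 11 genes), to -3.49 in complex V (no pseudogene rows, 6 genes) and in complex III to -4.29 (no pseudogene rows, 3 genes), -2.61 (no overlap, 4 genes), -2.48 (minimum of 100 counts, 5 genes) and -2.74 (minimum of 1 count, 9 genes). With DESeq2 size factors 47 and 1 members were called, as with TMM. No paired analysis was possible because each group has 1 library, and leaving out a replicate was not possible for the same reason. Depth limits the IgG side, where members had a median of 18 counts.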
